A study of Mus musculus with 16 samples.

Results

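The 6 genes Pde1c, Pde4a, Slc8a1, Slc24a4, Camk2b and Grk3 end the response of an olfactory sensory neuron to an odor and clear the calcium that entered during it. They were taken by gene symbol, though with earlier results of these data known, and make up 6 of the 19505 genes tested. Each is read by 1 probe set. RNA came from olfactory mucosa cells sorted from S100a5-tauGFP mice, whose green fluorescent reporter is named for S100a5, a calcium-binding protein gene that activity raises in olfactory sensory neurons. The 24 mice, of both sexes and 7 to 12 weeks old, were kept alone in clean air chambers (40 h, air flow 3.1 L/min) and, starting at 26 h, received octanol (an alcohol odorant) or filtered air as vehicle in pulses of 10 s every 20 min. Cells of 3 mice were pooled and sorted by fluorescence, which gave GFP+ and GFP- groups of 4 Clariom S arrays each after octanol, and the same after vehicle. All 4 groups carry the reporter allele, whose zygosity is not given in the sources used here, and no group of mice without it was analysed here. Values are log2 signals, where a difference of 1 is a doubling of signal on that array design. A signal depends on the probe set as well as on the RNA, so levels are compared here between groups within a gene and never between genes.

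In olfactory cilia an odorant receptor acts through the G protein Golf and adenylyl cyclase to make cyclic AMP, which opens a cation channel, and the calcium that enters opens a chloride channel. The response ends when receptor kinases phosphorylate the active receptor, phosphodiesterases break down cyclic AMP, calmodulin-bound calcium acts back on the channel and the cyclase, and exchangers carry calcium out against sodium. Slc24a4 and Pde1c are the exchanger and the phosphodiesterase best known from the cilia of mouse olfactory neurons.

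Promoter sequence is shown for 3 of the 6 genes, as a description. It is RefSeq sequence of mouse build GRCm38.p6 and covers the 250 bases before an annotated transcript start, written 5′ to 3′ on the gene's strand, with capitals marking motif matches. RefSeq gave 9 such promoters for 5 of the genes. The Slc24a4 promoter lies at chr12:102128477-102128726 (plus strand), an internal Pde4a promoter at chr9:21183851-21184100 (plus strand) and the Slc8a1 promoter at chr17:81738388-81738637 (minus strand).
Slc24a4: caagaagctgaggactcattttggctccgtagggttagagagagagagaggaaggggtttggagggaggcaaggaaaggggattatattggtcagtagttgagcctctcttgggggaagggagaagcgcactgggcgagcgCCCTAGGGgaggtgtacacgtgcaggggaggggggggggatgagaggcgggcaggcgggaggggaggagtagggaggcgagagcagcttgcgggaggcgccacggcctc
Pde4a: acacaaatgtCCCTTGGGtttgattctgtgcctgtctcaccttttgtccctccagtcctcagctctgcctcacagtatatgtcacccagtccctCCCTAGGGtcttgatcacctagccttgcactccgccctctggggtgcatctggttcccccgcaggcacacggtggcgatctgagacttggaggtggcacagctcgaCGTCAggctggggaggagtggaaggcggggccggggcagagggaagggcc
Slc8a1: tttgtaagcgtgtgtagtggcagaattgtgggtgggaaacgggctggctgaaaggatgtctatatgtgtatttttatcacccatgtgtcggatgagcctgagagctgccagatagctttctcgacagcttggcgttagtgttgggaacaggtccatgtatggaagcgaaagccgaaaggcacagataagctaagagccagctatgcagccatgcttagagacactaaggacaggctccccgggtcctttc
The motifs searched on both strands were CCCNNGGG, the core letters bound by Ebf factors, the cyclic AMP response element TGACGTCA, its 5-letter core TGACG (which every such element also holds), and the homeodomain letters TAATTA. The Slc24a4 window holds 1 Ebf core, 109 bases before the start. The Pde4a window holds 2 Ebf cores, 240 and 156 bases before the start, and 1 copy of the 5-letter core at 50 bases before it, while the Slc8a1 window and the other 6 windows hold no match. Among all 32851 promoter windows of the same length, 11.8% hold the Ebf core, 1.55% the response element, 17.8% its 5-letter core and 4.84% the homeodomain letters. Of the 9 windows 2 hold an Ebf core, both of them shown. The Pde1c windows and the Pde4a window at the gene start hold none and are not shown. A match is a description of letters, not of binding.

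Both sorted fractions carried RNA of mature olfactory neurons: Omp, the olfactory marker protein gene, averaged 18.22 ± 0.04 log2 in octanol GFP+ arrays, 18.10 ± 0.08 in octanol GFP- arrays, 18.18 ± 0.02 in vehicle GFP+ arrays and 18.11 ± 0.05 in vehicle GFP- arrays (SD, n = 4 each). S100a5, whose reporter the sort used, averaged 16.80 ± 0.04 log2 in octanol GFP+ arrays against 15.93 ± 0.13 in octanol GFP- arrays, and 16.90 ± 0.11 in vehicle GFP+ arrays against 16.08 ± 0.22 in vehicle GFP- arrays. Markers of other cells mostly had less signal in the GFP+ fraction, with all 5 neutrophil, all 9 monocyte and macrophage, all 6 microvillar and tuft cell, 5 of 6 sustentacular cell and 8 of 12 immature neuron markers lower in GFP+ cells (averaged over both exposures). The same held for all 4 progenitor, 4 of 5 Bowman gland and all 5 lymphoid markers, while horizontal basal cell, glial, endothelial and fibroblast markers had at most 2 lower. Of 14 mature neuron markers 9 were higher and 0 lower, with a median of 0.22 as deposited and -0.03 with arrays centred on receptors. The summed neutrophil marker signal spanned 11.14 to 14.13 log2 in octanol GFP+ arrays against 18.77 to 19.42 in octanol GFP- arrays, and 9.81 to 11.37 in vehicle GFP+ arrays against 18.46 to 19.11 in vehicle GFP- arrays. The summed immature neuron signal spanned 17.61 to 17.86 in octanol GFP+ arrays against 17.80 to 18.12 in octanol GFP- arrays, and 17.61 to 17.88 in vehicle GFP+ arrays against 17.91 to 18.27 in vehicle GFP- arrays. Such a sum is weighted to the brightest probe sets, here among them Ncam1, the 1 marker of this list called higher in GFP+ cells (0.27). The median averaged difference of the 12 immature neuron markers was -1.47. In these sorted pools, fewer cells of a type and less RNA per cell cannot be told apart, and the part of these other cells in the differences below was not tested. The background level, 6.32 log2, is the 95th percentile of the mean signals of 321 vomeronasal receptor genes, and Grk3 is the 1 member of the 6 whose signal lay near it. Of the markers counted above, 4 of 5 horizontal basal cell and 3 of 4 endothelial markers had means below it in every group. So did 1 each of the microvillar and tuft cell, lymphoid and fibroblast markers.

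Of the 6 genes, 4 were higher in GFP+ than in GFP- cells after octanol and after vehicle, both phosphodiesterases and both exchangers, and 1 was lower, the receptor kinase Grk3. Over all 19505 genes the higher share was 16.7% after octanol and 14.7% after vehicle, and the lower share was 13.2% after octanol and 13.5% after vehicle. Slc8a1 had the largest rise of the 6, 2.06-fold averaged over both exposures, followed by Pde1c at 1.63-fold, Slc24a4 at 1.62-fold and Pde4a at 1.45-fold. No difference between octanol and vehicle passed the test for any of the 6 in either fraction. These calls are from limma with Benjamini-Hochberg adjustment over all genes and a threshold of 0.05.

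**Figure D1:**
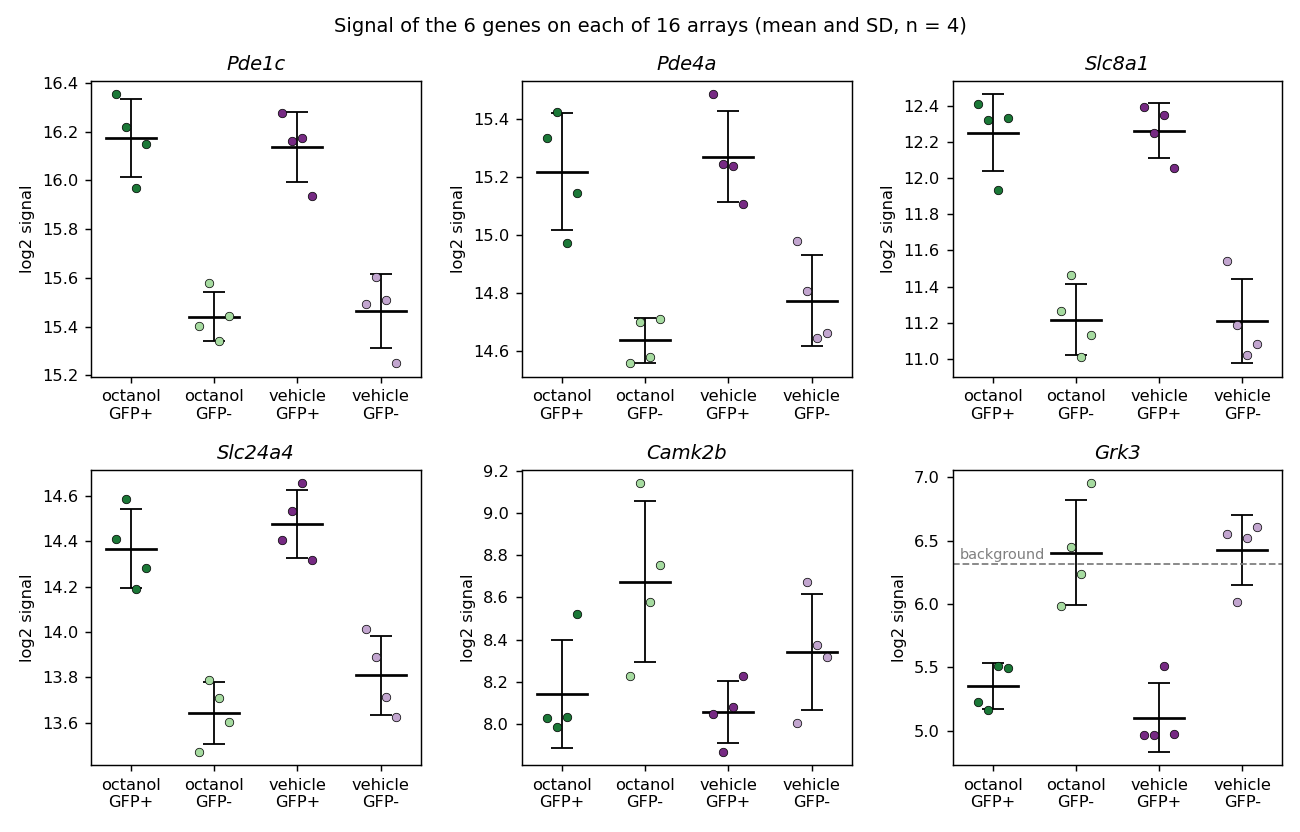
Log2 signal of each gene on each array, with 1 panel per gene and a vertical axis of its own in each. Points are the 4 arrays of a group, the horizontal line is the group mean and the bar is 1 SD. The GFP+ points of Pde1c, Pde4a, Slc8a1 and Slc24a4 lie above the GFP- points of the same exposure without overlap. The share of all genes whose fractions do not overlap was not counted, and 17.9% of all genes were higher in all 8 pools. The GFP+ points of Grk3 lie below the dashed background level of 6.32 log2.

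Pde1c (chr6:56069798-56652510, GRCm38.p6) encodes a phosphodiesterase that calcium and calmodulin activate. After octanol its signal was 16.35, 16.22, 15.97 and 16.15 log2 in GFP+ cells of pools 1 to 4, against 15.40, 15.58, 15.34 and 15.44 log2 in GFP- cells of the same pools. After vehicle it was 16.28, 16.16, 16.17 and 15.93 log2 in GFP+ cells, against 15.49, 15.60, 15.51 and 15.25 log2 in GFP- cells. All GFP+ arrays were higher than all GFP- arrays. How many of all genes show this was not counted, so it is not read as particular to Pde1c or to the genes below. The difference was 0.73 (SE 0.10, adjusted p = 0.000303) after octanol and 0.67 (adjusted p = 0.000532) after vehicle. Averaged over both exposures it was 0.70 log2, with a 95% interval of 1.46 to 1.81 for the fold.

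Pde4a (chr9:21165700-21213248) encodes a cyclic AMP-specific phosphodiesterase, which in olfactory neurons lies in the cell body and dendrite and not in the cilia. After octanol its signal was 15.33, 15.42, 14.97 and 15.14 log2 in GFP+ cells, against 14.56, 14.70, 14.58 and 14.71 log2 in GFP- cells. After vehicle it was 15.48, 15.24, 15.24 and 15.11 log2 in GFP+ cells, against 14.98, 14.81, 14.64 and 14.66 log2 in GFP- cells. The groups again did not overlap within an exposure, but this was the smallest of the rises, 0.58 (SE 0.10, adjusted p = 0.00189) after octanol and 0.49 (adjusted p = 0.00508) after vehicle. It also hung on the scaling of the arrays: with each array centred on its odorant receptor genes the difference was 0.24 (adjusted p = 0.133) after octanol and 0.33 (adjusted p = 0.0565) after vehicle, past the threshold in neither.

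Slc8a1 (chr17:81373105-81738387) encodes a sodium-calcium exchanger of the plasma membrane. After octanol its signal was 12.41, 12.32, 11.94 and 12.33 log2 in GFP+ cells, against 11.26, 11.46, 11.01 and 11.13 log2 in GFP- cells. After vehicle it was 12.40, 12.25, 12.35 and 12.05 log2 in GFP+ cells, against 11.54, 11.19, 11.02 and 11.08 log2 in GFP- cells. The lowest GFP+ array, at 11.94, stood above the highest GFP- array, at 11.54. The difference was 1.03 (SE 0.11, adjusted p = 6.84e-05) after octanol and 1.05 (adjusted p = 6.0e-05) after vehicle, and its averaged difference lay at the 97.8 percentile of the signed differences of all genes.

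Slc24a4 (chr12:102128727-102267133) encodes an exchanger that moves calcium out with potassium in return for sodium. After octanol its signal was 14.41, 14.59, 14.19 and 14.28 log2 in GFP+ cells, against 13.47, 13.79, 13.71 and 13.60 log2 in GFP- cells. After vehicle it was 14.40, 14.53, 14.66 and 14.32 log2 in GFP+ cells, against 14.01, 13.89, 13.71 and 13.63 log2 in GFP- cells. Every GFP+ array was above every GFP- array. The difference was 0.72 (SE 0.12, adjusted p = 0.0012) after octanol and 0.67 (adjusted p = 0.00204) after vehicle, and 0.70 averaged over both (95% interval of the fold 1.42 to 1.84).

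Camk2b (chr11:5969629-6066357) encodes the beta subunit of calcium/calmodulin-dependent protein kinase II, a kinase that phosphorylates the olfactory adenylyl cyclase. After octanol its signal was 8.03, 7.99, 8.03 and 8.52 log2 in GFP+ cells, against 8.23, 9.14, 8.58 and 8.76 log2 in GFP- cells. After vehicle it was 8.05, 7.87, 8.08 and 8.23 log2 in GFP+ cells, against 8.0, 8.67, 8.38 and 8.31 log2 in GFP- cells. The fractions overlapped in both exposures, and pool 2 had the widest gap in each. Neither exposure passed alone, with differences of -0.53 (SE 0.18, adjusted p = 0.0505) after octanol and -0.29 (adjusted p = 0.263) after vehicle. Averaged over both exposures Camk2b was 1.33-fold lower in GFP+ cells (-0.41 log2, adjusted p = 0.0257). That call was lost under quantile normalization (-0.13, adjusted p = 0.433) and when arrays were centred on the median (-0.11, adjusted p = 0.451), and also when the octanol pool 2 (adjusted p = 0.0556), octanol pool 3 (0.0507), vehicle pool 2 (0.0628) or vehicle pool 3 (0.0526) was left out.

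Grk3 (chr5:112910478-113015660, older symbol Adrbk2) encodes a kinase that phosphorylates activated receptors and that has been tied to odor desensitization in mice. After octanol its signal was 5.23, 5.16, 5.51 and 5.50 log2 in GFP+ cells, against 5.98, 6.45, 6.23 and 6.95 log2 in GFP- cells. After vehicle it was 4.97, 4.96, 5.51 and 4.97 log2 in GFP+ cells, against 6.56, 6.01, 6.52 and 6.61 log2 in GFP- cells. No GFP+ array was above background, and 2 of 4 octanol GFP- arrays and 3 of 4 vehicle GFP- arrays were. The fitted difference was -1.05 (SE 0.16, adjusted p = 0.000859) after octanol and -1.32 (adjusted p = 0.000184) after vehicle. With the GFP+ signal raised to the background level, the fold between the fraction means was 1.06 after octanol and 1.08 after vehicle. The GFP- means, 6.405 ± 0.41 after octanol and 6.424 ± 0.28 log2 after vehicle (SD, n = 4 each), exceeded that level by less than their SD. Neither fold is therefore a firm lower bound, and no size is given for the Grk3 difference.

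Within each gene the 4 group means were ordered by fraction. Pde1c, Pde4a, Slc24a4 and Slc8a1 had both GFP+ means above both GFP- means, and Grk3 and Camk2b had both below. For Camk2b the ranges of the fractions overlapped in both exposures and neither difference was called alone, and the Grk3 signals lay near or below background. The GFP+ groups were next to each other in each order with ranges that overlapped, and so were the GFP- groups. For Slc8a1, for example, the means were 12.25 ± 0.21 in octanol GFP+ arrays, 11.22 ± 0.19 in octanol GFP- arrays, 12.26 ± 0.15 in vehicle GFP+ arrays and 11.21 ± 0.23 in vehicle GFP- arrays (SD, n = 4 each).

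**Figure D2:**
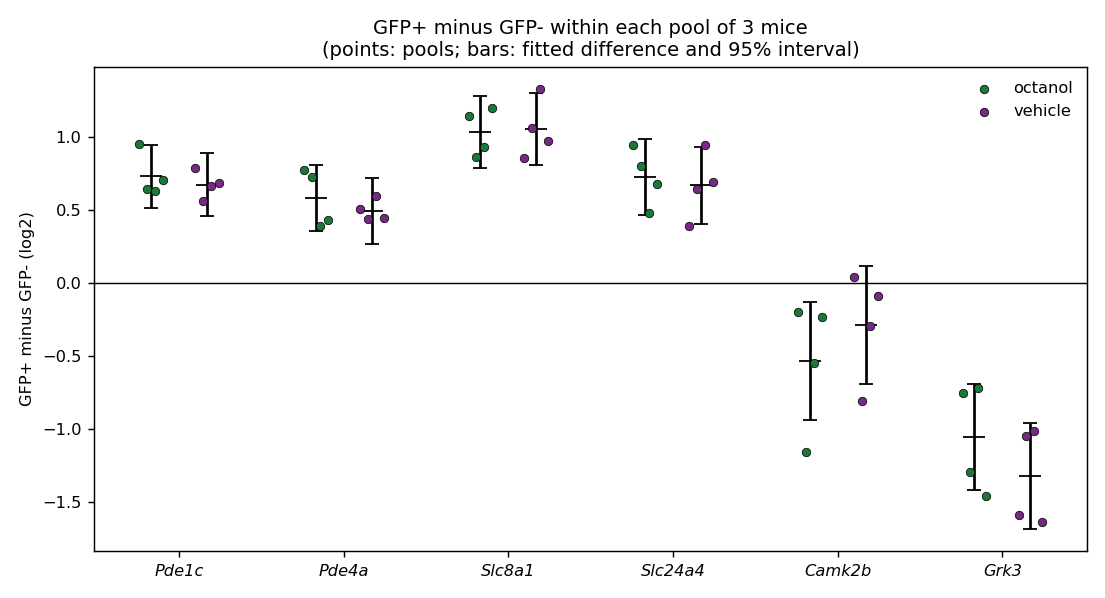
GFP+ minus GFP- difference of each gene (vertical axis, log2) in each pool of 3 mice. Points are the 4 pools of an exposure, and bars are the fitted difference with its 95% interval. All 8 pools of Pde1c, Pde4a, Slc8a1 and Slc24a4 lie above 0 and all 8 of Grk3 below it, while Camk2b has 1 vehicle pool at 0.04.

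Taken pool by pool, the GFP+ cells of Pde1c exceeded the GFP- cells by 0.95, 0.64, 0.63 and 0.70 log2 in octanol pools 1 to 4 and by 0.79, 0.56, 0.66 and 0.69 log2 in vehicle pools. Pde4a gave 0.77, 0.72, 0.39 and 0.43 log2 in octanol pools and 0.50, 0.44, 0.59 and 0.44 log2 in vehicle pools. Slc8a1 had the widest gaps among the rises, 1.14, 0.86, 0.93 and 1.20 log2 in octanol pools and 0.85, 1.06, 1.33 and 0.97 log2 in vehicle pools. For Slc24a4 the differences were 0.94, 0.80, 0.48 and 0.68 log2 in octanol pools and 0.39, 0.64, 0.94 and 0.69 log2 in vehicle pools. So 4 of the 6 genes were higher in GFP+ cells in all 8 pools, as were 17.9% of all genes tested, and 1 (Grk3) was lower in all 8, as were 13.5% of all genes. Camk2b was lower in 4 of 4 octanol pools (-0.20, -1.16, -0.54 and -0.23) and in 3 of 4 vehicle pools (0.04, -0.81, -0.29 and -0.09).

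Averaged over both exposures 4 of the 6 were called higher in GFP+ cells and 2 lower, beside shares of 29.4% higher and 16.7% lower over all genes. The median difference of the 6 genes was 0.65 after octanol and 0.58 after vehicle, beside 0.14 and 0.13 over all genes tested. The 4 rises stood at the 93.1 to 97.8 percentiles of all averaged signed differences and Camk2b at the 13.9 percentile, and no rank is given for Grk3, whose GFP+ signal was under background.

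**Figure D3:**
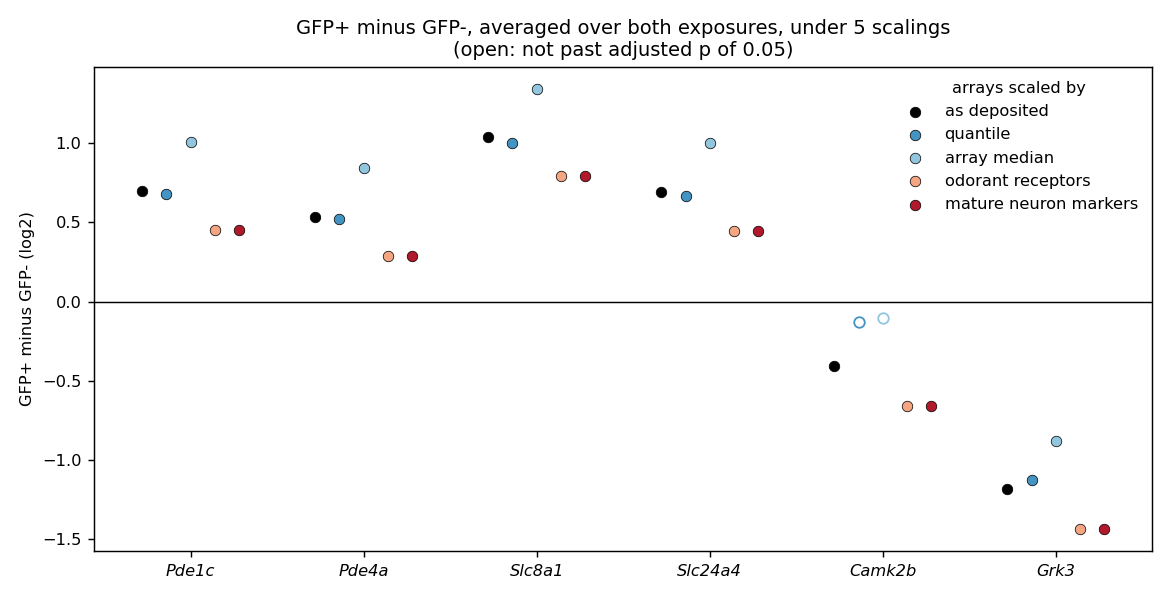
GFP+ minus GFP- difference averaged over both exposures (vertical axis, log2) for each gene under 5 ways of scaling the arrays. Filled points passed an adjusted p of 0.05 and open points did not. Slc8a1 stays between 0.79 and 1.35 and the fitted value of Grk3 between -1.44 and -0.88, while Camk2b is open under quantile normalization and under centring on the array median.

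The fractions differ in so many genes that the scaling of the arrays bears on every fold, and the median of all genes was itself 0.14 log2 higher in GFP+ cells as deposited. Centring each array on its median moved that to 0.45 and raised the 4 higher genes to between 0.84 (Pde4a) and 1.35 (Slc8a1). Centring each array on its odorant receptor genes moved the all-gene median to -0.11 and lowered them to 0.45 for Pde1c, 0.29 for Pde4a, 0.44 for Slc24a4 and 0.79 for Slc8a1. Centring on 14 markers of mature sensory neurons gave the same values to 2 decimals. Under these 2 settings all 4 were still higher in the averaged comparison, with adjusted p for Pde4a of 0.0157 and 0.0107, and Camk2b was lower at -0.66 in both. The share of called genes that were higher was 63.8% as deposited, 69.3% after quantile normalization, 86.5% after centring on the median, 18.7% after centring on receptors and 18.8% after centring on the markers. In single exposures the higher share was 55.9% after octanol and 52.2% after vehicle as deposited. With centring on receptors it was 12.9% and 24.3%, with centring on the markers 18.0% and 16.8%, and with centring on the median 84.9% and 86.5%. Quantile normalization gave 63.4% after octanol and 65.0% after vehicle.

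The effect of octanol asks whether repeated odor exposure altered the genes that end the response. In limma 0 of the 6 genes passed in GFP+ cells, in GFP- cells or in the GFP+ to GFP- ratio, and 0.0% of all 19505 genes did so in each. An unadjusted p under 0.05 was reached by 727 genes in GFP+ cells, 894 in GFP- cells and 886 in the ratio, and by 0 of the 6 in each.

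**Figure D4:**
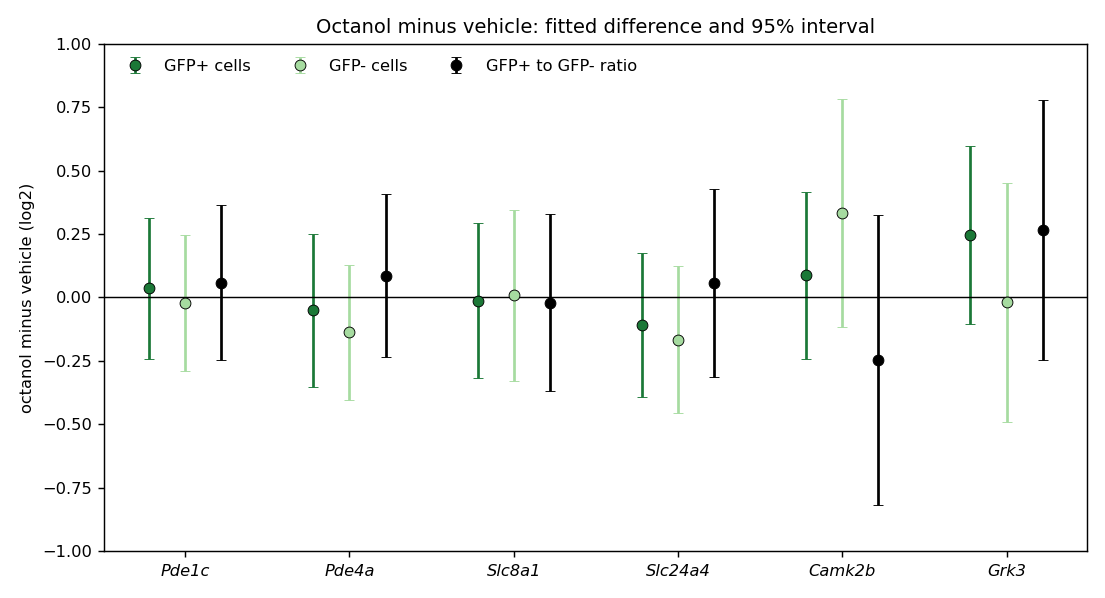
Octanol minus vehicle difference (vertical axis, log2) of each gene in GFP+ cells, in GFP- cells and in the GFP+ to GFP- ratio, with 95% intervals. Every interval spans 0, and the widest are those of Camk2b and Grk3.

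In GFP+ cells the octanol minus vehicle difference was 0.04 for Pde1c (95% interval -0.24 to 0.31) and -0.05 for Pde4a (-0.35 to 0.25). The exchangers were at -0.01 for Slc8a1 (-0.32 to 0.29) and -0.11 for Slc24a4 (-0.39 to 0.18). Camk2b was at 0.09 (-0.24 to 0.42), and Grk3, below background on all of these arrays, at 0.25 (-0.10 to 0.60). In GFP- cells the phosphodiesterases were at -0.02 (-0.29 to 0.25) for Pde1c and -0.14 (-0.40 to 0.13) for Pde4a. Slc8a1 was at 0.01 (-0.33 to 0.35) and Slc24a4 at -0.17 (-0.46 to 0.12). The largest estimate was that of Camk2b, 0.33 (-0.12 to 0.78, adjusted p = 0.982), and Grk3 was at -0.02 (-0.49 to 0.45). For the ratio of GFP+ to GFP- signal the octanol effect was 0.06 for Pde1c (-0.25 to 0.36), 0.09 for Pde4a (-0.23 to 0.41), -0.02 for Slc8a1 (-0.37 to 0.33) and 0.06 for Slc24a4 (-0.31 to 0.43). It was -0.25 for Camk2b (-0.82 to 0.33) and 0.26 for Grk3 (-0.25 to 0.78). The intervals leave room for changes of the size of their bounds in either direction. The smallest change that 4 arrays a group could detect was not computed. The octanol and vehicle ranges overlapped for all 6 genes in both fractions, where 2.21% of all genes did not overlap in GFP+ cells and 2.57% did not in GFP- cells.

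Pde1c, Pde4a, Slc24a4 and Slc8a1 varied together from array to array within a group. Deviations from the group means correlated at Pearson r of 0.588 to 0.777 over 16 arrays in the 6 pairs of these genes, against -0.187 to 0.192 in the 9 pairs that hold Grk3 or Camk2b. In octanol GFP+ cells replicate 3 was the lowest array for all 4, and in vehicle GFP+ cells replicate 4 was. The points share their arrays and the scaling of each array, and the Grk3 signals lay near or below background, so this is a description. The deviations of each of the 6 genes correlated with that of the array's median signal at -0.208 to 0.373. What made the 4 genes vary together was not tested.

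The genes whose signals over the 16 arrays were most like those of a member, among 13611 genes above background in at least 1 group, were ranked by Pearson r, which here mostly reflects the gap between the fractions. Pde1c was closest to the odorant receptor genes Olfr112 (r = 0.985) and Olfr1132 (0.980) and to Adam28, a membrane metalloprotease gene (0.979). Pde4a was closest to Cntnap5b, a contactin-associated protein gene (0.976), to the protocadherin Pcdh9 (0.971) and to Slc7a8, an amino acid transporter (0.965). Slc8a1 lay closest to Clip4 (0.981), a microtubule-binding protein gene, Olfr1099 (0.980) and the protocadherin Pcdh7 (0.975). Slc24a4 lay closest to Slc7a8 (0.981), the endocytic adaptor Sgip1 (0.978) and the synaptic adhesion gene Nlgn3 (0.976). Slc7a8 was thus among the 3 closest genes of both Pde4a and Slc24a4. Among the 3 genes closest to Grk3, whose GFP+ arrays were all below background, were Ckap2l, a mitotic spindle gene, and Vrk2, a kinase, at 0.963 each. Camk2b had weaker neighbours, Bex1 (0.884), Chmp1a (0.866) and Olfr367-ps (0.808).

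**Figure D5:**
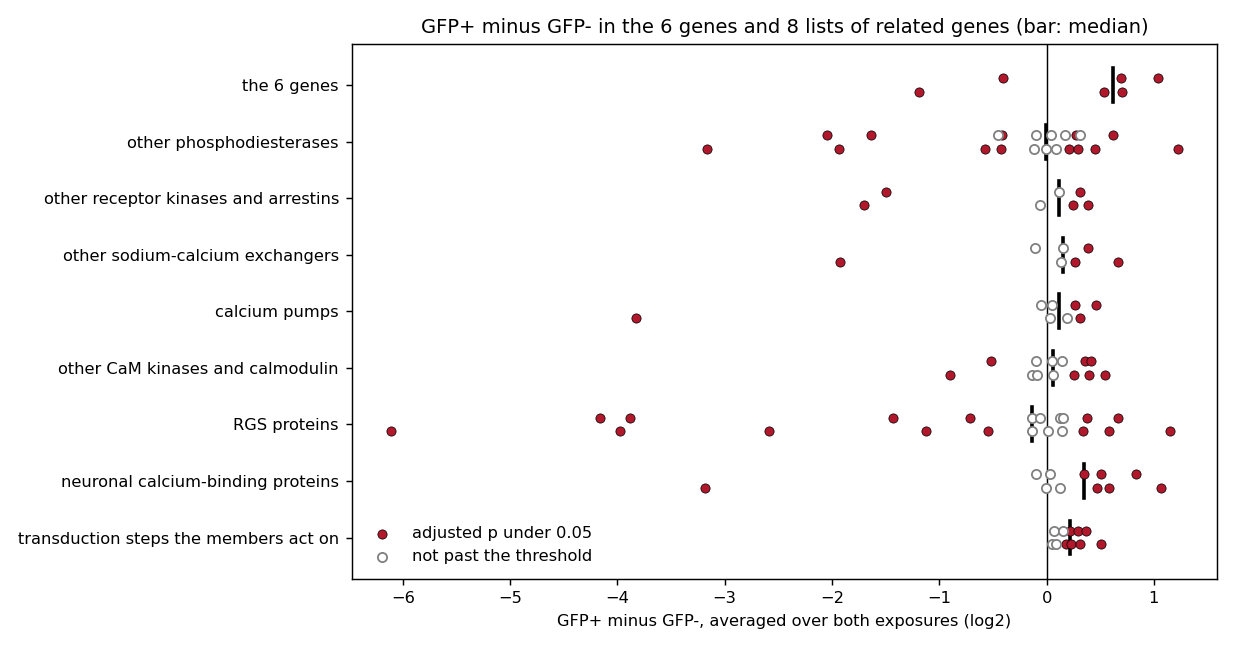
GFP+ minus GFP- difference averaged over both exposures (horizontal axis, log2) for the 6 genes and for 8 lists of related genes. Each point is a gene, filled where the adjusted p was under 0.05, and the vertical bar is the list's median. Points are fitted differences, which for a gene under background in GFP+ cells, such as Rgs2 at the far left, are not a measured size. Transduction genes have 7 filled points above 0 and none below.

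Relatives of the 6 genes did not all go the same way. Among other phosphodiesterases 6 of 21 were higher and 7 lower in GFP+ cells averaged over both exposures, with a median of -0.0008. The shares over all genes were 29.4% higher and 16.7% lower with a median of 0.14, and the counts in this and the following lists, several of them near those shares, are to be read against them. Of the 21 phosphodiesterases, 7 had means below background in every group, and the counts and medians of the lists include such genes. They were also 2 of 7 kinases and arrestins, 3 of 8 pumps, 4 of 21 RGS genes and 1 of 11 calcium-binding genes. Pde2a, a phosphodiesterase that cyclic GMP activates and that marks guanylyl cyclase D neurons, was 8.96-fold lower (-3.16, adjusted p = 3.34e-08). Its mean was 8.12 ± 0.24 in octanol GFP+ arrays against 11.31 ± 0.14 in octanol GFP- arrays, and 8.03 ± 0.42 in vehicle GFP+ arrays against 11.17 ± 0.14 in vehicle GFP- arrays (SD, n = 4 each). Pde8a, another cyclic AMP-specific enzyme, was 3.82-fold lower (-1.93). Pde3b was not above background on any GFP+ array and was there at least 2.06-fold lower after octanol and at least 3.15-fold lower after vehicle.

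Among the other sodium-calcium exchangers 3 of 7 were higher and 1 lower, with a median of 0.16. But 4 of the 7 had means below background in every group, among them Slc8a3 and Slc24a5, which were counted as higher. Slc24a2, which like Slc24a4 depends on potassium, was 1.59-fold higher (0.66, adjusted p = 8.23e-05), with means of 14.15 ± 0.28 in octanol GFP+ arrays against 13.49 ± 0.33 in octanol GFP- arrays. Slc8b1, the mitochondrial exchanger, was below background in GFP+ cells and at least 1.74-fold lower after octanol and at least 1.45-fold lower after vehicle. Calcium pumps, the other route of extrusion, had 3 of 8 higher and 1 lower (median 0.12). The plasma membrane pump Atp2b1 was 1.38-fold higher (0.46) and the secretory pathway pump Atp2c2 was 1.24-fold higher (0.31), but with arrays centred on receptors these were 0.21 (adjusted p = 0.0780) and 0.06 (adjusted p = 0.643), and 0 pumps were higher and 3 lower. Atp2a3, a pump of the endoplasmic reticulum, was 14.2-fold lower (-3.83, adjusted p = 4.54e-08), and which cells carried its signal was not tested.

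Of the other receptor kinases and arrestins 3 of 7 were higher and 2 lower (median 0.12), and Grk2 and Arrb2 were not analysed here. Grk4 was 1.24-fold higher (0.32, adjusted p = 0.0357), a call lost with arrays centred on receptors (0.06, adjusted p = 0.736). Grk6, a kinase of many tissues, was 3.26-fold lower (-1.70), and the arrestin Arrb1 was 2.82-fold lower (-1.49). Of the other calmodulin-dependent kinases, their inhibitors and calmodulin genes 5 of 13 were higher and 2 lower (median 0.06). Camk2n2, an inhibitor of the kinase that Camk2b is part of, was 1.46-fold higher (0.55), and Camk2n1, the other inhibitor, was 1.43-fold lower (-0.51), a call lost with arrays centred on their median (-0.21, adjusted p = 0.0601). Camk1d was 1.87-fold lower (-0.90).

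RGS proteins, which speed the turning off of G proteins, had 5 of 21 higher and 9 lower, with a median of -0.13. Rgs2 was below background on all GFP+ arrays and at least 34.5-fold lower in GFP+ cells after octanol and at least 26.1-fold lower after vehicle. Its mean was 5.36 ± 0.55 in octanol GFP+ arrays against 11.43 ± 0.46 in octanol GFP- arrays. Rgs18 (adjusted p = 1.99e-08) and Rgs13 (adjusted p = 1.58e-07), both known from blood or immune cells, were lower as well. Rgs18 was above background on 1 of 4 GFP+ arrays in each exposure, and Rgs13 on 4 of 4 octanol and 3 of 4 vehicle GFP+ arrays, so no exact size is given for either. Neuronal calcium-binding proteins had 6 of 11 higher and 1 lower, with a median of 0.35. Necab1 was 2.09-fold higher (1.06, adjusted p = 1.79e-05) and Hpcal4, of the visinin-like family, was 1.79-fold higher (0.84), while Calb2, calretinin, was 9.1-fold lower (-3.19, adjusted p = 2.19e-09).

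The transduction steps on which the 6 genes act had 7 of 11 higher and 0 lower in GFP+ cells, with a median of 0.22 as deposited. Ano2, the chloride channel that calcium opens, was 1.43-fold higher (0.51, adjusted p = 9.9e-05), the channel subunit Cngb1 was 1.29-fold higher (0.36) and the cyclase Adcy3 was 1.24-fold higher (0.31). With arrays centred on receptors the median of this list was -0.03, with 1 gene higher and 0 lower, and Adcy3 (0.06, adjusted p = 0.598) and Cngb1 (0.11, adjusted p = 0.477) no longer passed. That centring also turned the medians of the kinase and arrestin list (-0.13), the exchanger list (-0.09), the pump list (-0.13) and the calmodulin kinase list (-0.19), while calcium-binding proteins stayed at 0.10 with 2 higher and 3 lower. With arrays centred on their median the RGS list was at 0.17, with 8 higher and 8 lower, and the phosphodiesterase list at 0.30, with 11 higher and 4 lower, so no direction is given for these lists beyond the scaling named. In all 8 lists limma made 0 calls for octanol in GFP+ cells, in GFP- cells or in the ratio.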

How the data were processed

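RNA of 50 to 100 ng per sorted fraction was made into biotinylated cRNA for 16 arrays, per the labels' protocols. The authors deposited log2 signals from Affymetrix Expression Console, per the submitters' processing notes, whose version and parameters were not given in the sources used here. Values ran from 2.22 to 18.70, array medians from 7.42 to 7.70, and no rescaling was applied, the number of arrays limiting the precision. Of 28846 probe sets, 19572 carried exactly 1 gene symbol, and for a gene with several the one of highest mean was kept (67 left out), which gave 19505 genes. All 19572 were matched by Entrez number to RefSeq on GRCm38.p6.

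GFP+ minus GFP- differences came from limma 3.58.1 in R 4.3.3 (lmFit and eBayes, moderated, 2-sided) on 16 arrays, the pool entering as a fixed block, and octanol minus vehicle from the 8 arrays of a fraction without a block. Adjusted p-values are Benjamini-Hochberg values over all 19505 genes, with a threshold of 0.05, and the fit was tested on simulated data. Pairing of the fractions by exposure and replicate number is inferred from 24 mice in 8 pools of 3. Residuals of paired fractions correlated at 0.0779 to 0.222. P-values of GFP+ minus GFP- measure how the difference within a pool varies from pool to pool. Those of octanol minus vehicle measure the spread between pools. The members and the gene lists were chosen with earlier results of these data known. All 6 members are described. From each list of related genes up to 3 genes past the threshold and above background in a group were named, those of largest averaged difference, and for each member the 3 genes of highest Pearson r. A bound on a fold raises the signals of the dimmer group under background to 6.32 log2 and leaves those of the other group as measured.

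Alternatives were 4 other scalings of the arrays, 1 of them (centring on mature neuron markers) chosen after seeing the data, the mean of a gene's probe sets, a filter on dim genes, a variance trend, the block, and leaving out each pool or array. 2634 probe sets with several symbols or none were left out. Motifs were searched in the 250 bases before each start only, so that no base after that start was read, though a window reaching past the start had been planned. Windows before an internal start, such as the Pde4a window shown, lie inside the gene. One gene of similar pattern is not reported here.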

Additional observations from a re-analysis of the deposited data

Results flagged for a closer look

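In the 24 sets of 4 arrays (6 genes in 4 groups), 3 held an array whose gap to its nearest neighbour took up more of the group's range than Dixon's 95% critical value, and chance flags about 1 in 20 such sets. Grk3 in vehicle GFP+ cells had its highest array at 5.51 log2 (replicate 3), with 0.986 of the range as the gap, all 4 arrays being under background. Grk3 in vehicle GFP- cells had its lowest array at 6.01 log2 (replicate 2), with 0.860 of the range as the gap. Camk2b in octanol GFP+ cells had its highest array at 8.52 log2 (replicate 4), with 0.910 of the range as the gap, and the GFP- array of that pool was at 8.76.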

How the results depend on the processing

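The scaling of the arrays moved the counts of all genes most. After octanol, 3257 genes were higher in GFP+ cells and 2569 lower. Genes higher numbered 11401 with arrays centred on their median, 713 on receptors and 887 on mature neuron markers, and genes lower 4832 and 4032 with the last 2 settings. After vehicle, 2871 were higher and 2631 lower. Genes higher numbered 4561 after quantile normalization, 12759 with the median, 1001 with receptors and 812 with the markers, where 4034 were lower. Averaged over both exposures, 5740 were higher and 3256 lower, against 14557, 1223 and 1319 higher with the median, receptors and markers, and 5317 and 5707 lower with receptors and markers. Leaving out 1 pool gave 1799 to 3115 genes higher after octanol, with 1799 without octanol replicate 1 and 1970 without octanol replicate 4. It gave 1724 to 2882 after vehicle, with 1836 without vehicle replicate 1 and 1724 without vehicle replicate 4. The cause was not tested.

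Among the 6 genes no called difference turned its sign in any alternative. Of 95 values per comparison, 88 after octanol, 92 after vehicle and 89 of the averages kept their side of the threshold. Pde4a lost its call after octanol with receptors (0.24, adjusted p = 0.133), and after vehicle with receptors (0.33, 0.0565) and markers (0.25, 0.101). Camk2b passed after octanol with receptors (-0.87, adjusted p = 0.00261), markers (-0.80, 0.00517), only genes above background (0.0384), a variance trend (0.0442), no replicate block (0.0427) and without vehicle replicate 2 (0.0369), and after vehicle with markers (-0.53, 0.0424). Its vehicle difference was 0.02 and 0.05, uncalled, under quantile normalization and the median. All octanol against vehicle values stayed uncalled, 95 for the ratio and 101 for each fraction.

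Without the replicate block 6 members were called after octanol, with 2806 genes higher and 2474 lower, 5 after vehicle (2456 and 2535) and 6 in the average (5260 and 3132). The replicate numbers also ran across exposures, where residuals correlated at 0.0582 to 0.332, and with the replicate block octanol against vehicle gave 0 member calls. The filter on dim genes removed Grk3. Depth of signal limits Grk3 alone of the 6: the other 5 were above background with the level set at the 90th (5.99), 95th or 99th (7.13) percentile. Grk3 was above the 99th percentile level on 0 arrays of any group.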
